A study of Mus musculus with 60 samples.

Results

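Organoids grown from the duodenum of WT-cKO mice were compared after 48 h and after 24 h of DMSO, the vehicle of the study's 4-hydroxytamoxifen (4-OHT) treatment. The comparison comprises every gene with a value between these groups, 24905 of the 41018 genes listed. The series asks what loss of the kinase CDK2 or CDK5 does in adult tissue, and this comparison has neither: it shows how transcripts of vehicle-treated organoids stand at the later time against the earlier one. RNA of each culture was read near its polyadenylated 3′ ends (QuantSeq), and what was analysed is the authors' deposited table of comparisons, which gives a log2 fold change and a p-value per gene. Depth and levels per sample are therefore unknown.

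The groups used were WT-cKO with DMSO for 48 h and for 24 h, and, beside them, WT-cKO with 1 uM 4-OHT for 48 h and for 24 h. As a second view of time under vehicle, WT-dTAG and CDK2-dTAG organoids with DMSO for 24 h were set against the same lines with DMSO for 6 h. All grew in Matrigel domes with IntestiCult medium. WT-cKO is the wild-type line of the conditional knockout arm, and 4-OHT serves to activate tamoxifen-dependent Cre recombinases; WT-dTAG is titled as coming from WT mice and is the wild-type line of the degron arm, and CDK2-dTAG is homozygous for a degron tag on the kinase, which DMSO does not engage. These lines are called the dTAG-arm lines here. The labels do not give the further alleles, the Cre driver, the age of the mice or the amount of DMSO. They give 3 replicates per group and do not tell what separates them (cultures, animals or wells), so the scatter behind the p-values may be technical. Whether the authors' test took that scatter from the compared groups alone or from more samples is not stated.

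Duodenal organoids hold the cell types of the crypt and villus. Stem cells divide at the crypt base beside Paneth cells, which secrete antimicrobial peptides; their offspring multiply under Wnt and Notch signals and then become absorptive enterocytes or secretory goblet, enteroendocrine and tuft cells. Between passages an organoid grows, buds and sheds cells into its lumen while the medium is used up, so time in culture can by itself move differentiation, cell cycle, hypoxia and stress genes.

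No gene was called between 48 h and 24 h in WT-cKO organoids. Of 24905 genes in the authors' deposited table, 0 (0%) had an FDR p under 0.05, and the smallest FDR p, that of Mettl3, was 0.914. Without adjustment 354 genes (1.42%) had p under 0.05, 186 (0.747%) with a higher and 168 (0.675%) with a lower value at 48 h, by the same table. Uniform p-values would give 1245. From a gene's log2 fold change and p-value its standard error was derived, and 9549 genes had one of at most 0.5; these are called better measured here. For these the median log2 fold change was -0.0042, the central 95% lay between -0.50 and 0.51, and 8166 (85.5%) had a 95% interval wholly between -1 and 1. An interval of that width leaves room for smaller changes, and for the 12926 genes with a standard error above 1 it leaves room for large ones. A set of 6396 genes (25.7%) carried the nearly constant value of -0.03 with a median standard error of 3.37, which holds no information on those genes. Because of it 37.8% of all genes were above 0, but 48.9% of the better measured ones and 50.9% of the genes outside the set. Cd3e, a gene of this set, stood above 0 in the dTAG-arm lines: 0.10 in WT-dTAG and 0.08 in CDK2-dTAG (standard errors 3.34 and 3.71). The shares of all genes above 0 there, 66.9% and 66.8%, include such uninformative genes. For genes with a standard error of at most 0.5 in the line itself, the median was -0.0014 in WT-dTAG and -0.020 in CDK2-dTAG.

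The epithelial character of the cultures could be read only from precision, since the table holds no levels. All 5 epithelial markers (Epcam, Vil1, Cdh1, Krt8, Cdx2) were better measured, with standard errors between 0.115 and 0.213. So were all 4 Paneth, all 4 stem cell and all 5 enterocyte markers. None of the 3 tuft, 3 fibroblast or 3 immune markers was, their standard errors being at least 1.40, and 2 of the fibroblast and 2 of the immune markers carried the constant value. Of the 2 endothelial markers Pecam1 was better measured (standard error 0.328) and Cdh5 carried the constant value. In the longer lists Csf1r was the 1 of 15 immune markers, Vim the 1 of 16 fibroblast markers and Fyb the 1 of 22 tuft markers that were better measured, so precision alone does not show that other cell types were absent.

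**Figure D1:**
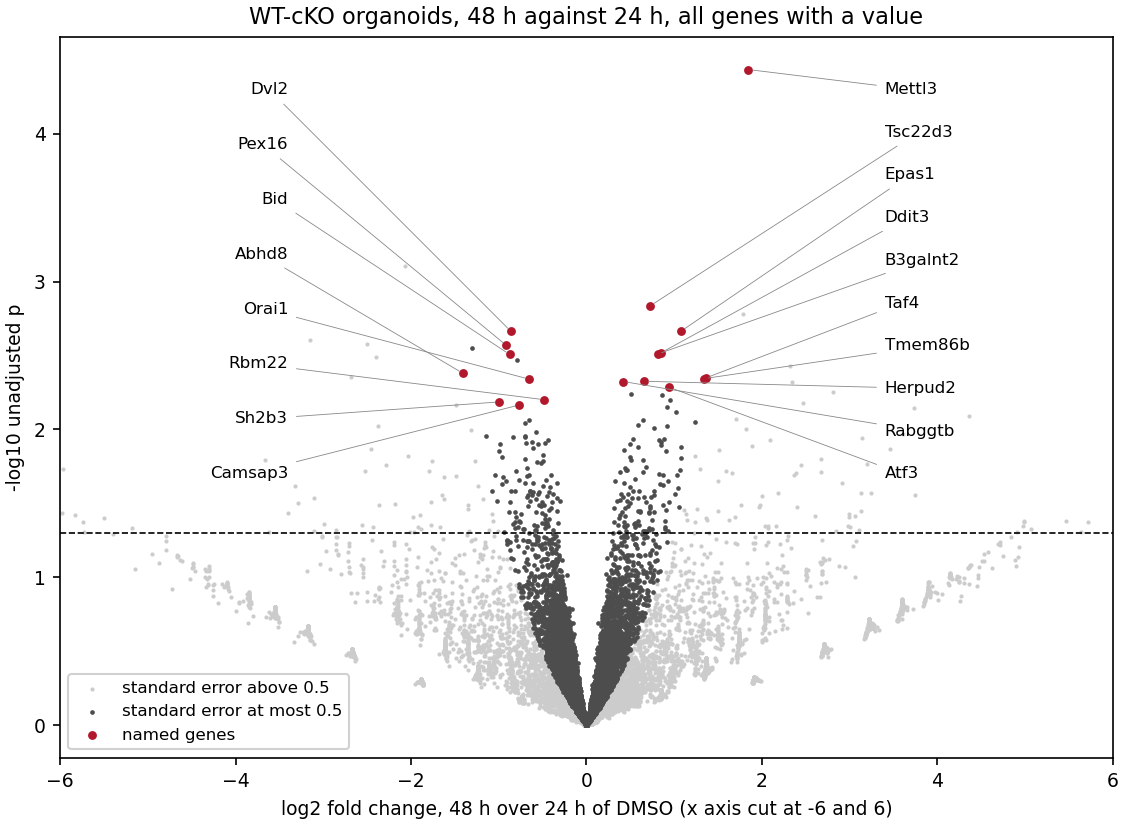
Each point is a gene in WT-cKO organoids, with its log2 fold change of 48 h over 24 h against its -log10 unadjusted p; the dashed line marks an unadjusted p of 0.05, and 8 genes lie beyond the x limits. The best measured genes form the narrow dark core, Mettl3 stands highest at 1.84, and the grey arcs are genes whose values repeat.

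Of the 10 better measured genes with the smallest p above 0, none passed the test over all genes, so their values describe these samples. Mettl3, the catalytic subunit of the N6-methyladenosine RNA methyltransferase, had the largest, a log2 fold change of 1.84 with unadjusted p = 3.67e-05 in the authors' deposited table. Its derived 95% interval was 0.97 to 2.72. Tsc22d3, a leucine-zipper protein induced by glucocorticoids, stood at 0.73 (FDR p = 0.999) in the authors' deposited table. Epas1, which encodes the oxygen-sensitive factor HIF-2α, stood at 1.08 there (the authors' deposited table). Ddit3 and Atf3, transcription factors induced by stress, were listed at 0.86 and 0.95 in the authors' deposited table. The other 5 were Taf4, a subunit of the general factor TFIID, at 1.36, Tmem86b at 1.34, the glycosyltransferase gene B3galnt2 at 0.81, Herpud2 at 0.66 and Rabggtb, a subunit of the Rab prenyltransferase, at 0.42, all from the authors' deposited table.

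The 10 with the smallest p below 0 did not pass either, and 1 of them is a predicted gene. Dvl2, a Dishevelled protein that relays Wnt signals, had -0.86 (FDR p = 0.999) by the authors' deposited table, and a derived interval of -1.41 to -0.31. Bid, a BH3-only activator of apoptosis, had -0.88 in the authors' deposited table. Abhd8 (-1.41), the adaptor Sh2b3 (-0.997), the peroxisome biogenesis gene Pex16 (-0.92), the microtubule minus-end binder Camsap3 (-0.77), the calcium channel pore Orai1 (-0.65) and the splicing factor Rbm22 (-0.49) were also among them, again from the authors' deposited table. The kinases of the study were read as well. Cdk2 (GRCm38 chromosome 10, 128697939 to 128705031, minus strand) had 0.24 in the authors' deposited table, with a derived interval of -0.17 to 0.65. Cdk5 (chromosome 5, 24418241 to 24423530, minus strand) had -0.83 with unadjusted p = 0.0112 and FDR p = 0.999 in the authors' deposited table, and a derived interval of -1.48 to -0.19, in organoids where neither gene was targeted.

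The change with time in WT-cKO differed from that in the dTAG-arm lines for a few genes, and Fkbp5 differed from both. The test took, per gene, one deposited log2 fold change minus the other, over the combined standard error; the comparisons share no library. Against WT-dTAG 5 of 24905 genes (0.0201%) passed an adjusted p under 0.05, and 5 (0.0201%) against CDK2-dTAG; 556 (2.23%) and 484 (1.94%) had unadjusted p under 0.05. The windows are 48 h against 24 h in WT-cKO and 24 h against 6 h in the dTAG-arm lines, so the line and the window cannot be told apart. A difference that missed this threshold does not show that the lines behaved alike.

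Fkbp5 (chromosome 17, 28399094 to 28517527, minus strand), a co-chaperone of the glucocorticoid receptor and a widely used readout of its activity, had a positive value in WT-cKO and was lower at the later time in both dTAG-arm lines. The authors' deposited table gave 0.86 in WT-cKO, -1.56 in WT-dTAG and -1.75 in CDK2-dTAG. On the authors' log2 fold changes, WT-cKO exceeded WT-dTAG by 2.42 (SE 0.417, adjusted p = 0.000170) and CDK2-dTAG by 2.61 (SE 0.437, adjusted p = 5.45e-05). Fkbp5 had FDR p = 0.999 in WT-cKO, against 0.000121 in WT-dTAG and 0.000125 in CDK2-dTAG, in the authors' deposited table. Tsc22d3, another glucocorticoid target, had the same order of values in the authors' deposited table, 0.73 in WT-cKO, against -0.28 in WT-dTAG and -0.32 in CDK2-dTAG, but its differences did not pass (adjusted p = 0.991 and 1.00). Of the 20 glucocorticoid-responsive genes with a value, 9 were above 0 in WT-cKO, beside 37.8% of all genes, by the authors' deposited table. Fkbp5 and Tsc22d3 were the 2 with unadjusted p under 0.05, beside 1.42% of all genes. Nr3c1, the receptor gene, had 0.10 in the authors' deposited table.

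Epas1 (chromosome 17, 86753700 to 86833410, plus strand) had 1.08 in WT-cKO, against -0.56 in WT-dTAG and -1.44 in CDK2-dTAG, in the authors' deposited table. Its difference, from the authors' values, passed against CDK2-dTAG (2.52, SE 0.547, adjusted p = 0.0288) and did not pass against WT-dTAG (1.64, SE 0.502, adjusted p = 0.799). Rn7sk (chromosome 9, 78175303 to 78175633, minus strand) encodes the 7SK noncoding RNA, which holds the elongation factor P-TEFb inactive. The libraries were read near polyadenylated 3′ ends, and how this noncoding RNA entered them was not tested. Rn7sk had -0.28 in WT-cKO, against 2.04 in WT-dTAG and 1.84 in CDK2-dTAG, in the authors' deposited table. From the authors' values, the difference of WT-cKO from WT-dTAG was -2.32 (SE 0.468, adjusted p = 0.00789), and its difference from CDK2-dTAG of -2.12 did not pass (adjusted p = 0.0810). A further called gene, against WT-dTAG, is a predicted gene with a standard error above 0.5. If the deposited p-values came from a t distribution with 4 degrees of freedom, 2 genes would pass against each line: Fkbp5 and the predicted gene against WT-dTAG, and Fkbp5 and Epas1 against CDK2-dTAG. The calls of Rn7sk, Trib3 and the mitochondrial genes end under that reading. Under the normal reading used here, mt-Co1 had a standard error of 0.193 in both WT-cKO and WT-dTAG. Its unadjusted p in the authors' deposited table was 0.688 in WT-cKO and 1.29e-10 in WT-dTAG. A quantile of that t distribution would set these 2 standard errors far apart. Which distribution the authors used is not stated.

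**Figure D2:**
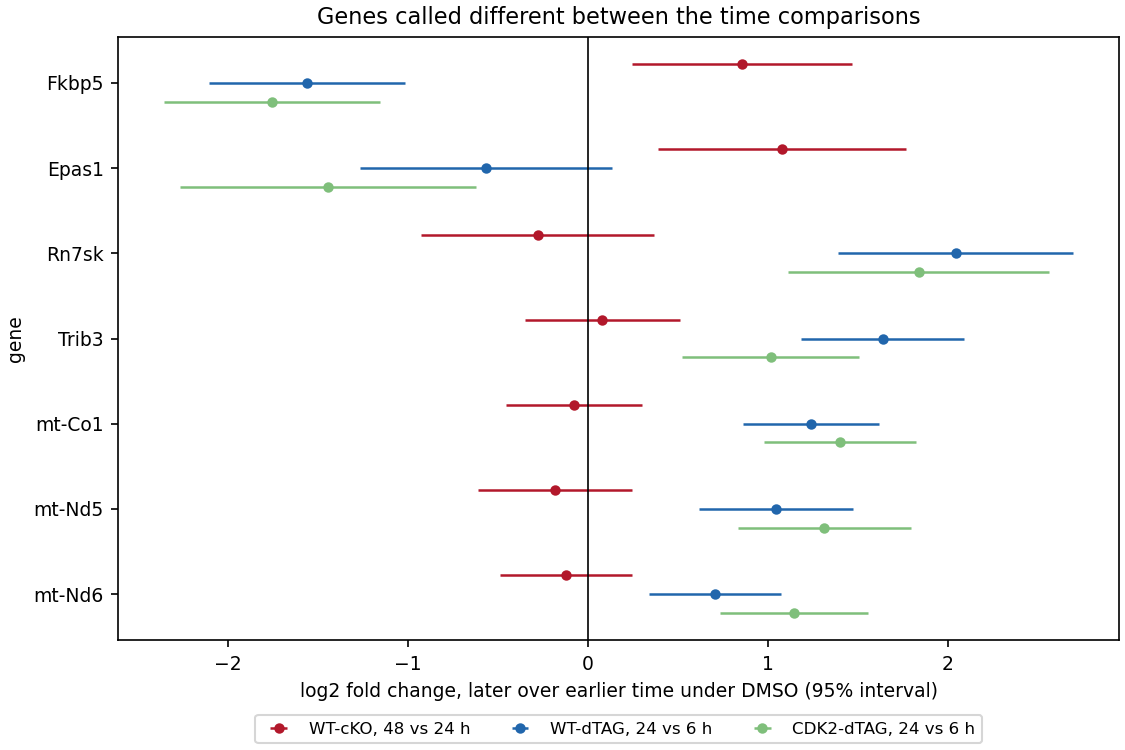
Log2 fold changes of the later over the earlier time under DMSO, with 95% intervals derived from the deposited p-values, for the 7 named genes called different between time comparisons. Fkbp5 and Epas1 lie above 0 in WT-cKO and below it in the dTAG-arm lines, and the other 5 lie near 0 in WT-cKO and above 0 in the dTAG-arm lines.

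Transcripts of mitochondrial DNA, which encodes 13 respiratory chain proteins and both ribosomal RNAs of the organelle, were mostly below 0 in WT-cKO and all above 0 in the dTAG-arm lines. In WT-cKO 14 of 15 were below 0 at 48 h in the authors' deposited table, their median being -0.18, and none had unadjusted p under 0.05. Their range was -0.42 for mt-Atp8 to 0.01 for mt-Co3 in the authors' deposited table. In WT-dTAG all 15 were above 0 with a median of 0.64, beside 66.9% of all genes above 0, and 3 of them passed FDR p under 0.05, beside 0.0803% of all genes, by the authors' deposited table. CDK2-dTAG had all 15 above 0 with a median of 0.73, beside 66.8% of all genes, and 4 passed, beside 0.0361% of all genes, by the authors' deposited table. The catalytic oxidase subunit mt-Co1 (chromosome M, 5328 to 6872) had -0.08 in WT-cKO, against 1.24 in WT-dTAG and 1.40 in CDK2-dTAG, in the authors' deposited table. The difference of the authors' values passed against both lines, at -1.32 (SE 0.273, adjusted p = 0.00841) and -1.48 (SE 0.289, adjusted p = 0.00385). By the authors' values the complex I genes mt-Nd5 and mt-Nd6 passed against CDK2-dTAG, at differences of -1.50 (SE 0.327, adjusted p = 0.0288) and -1.27 (SE 0.281, adjusted p = 0.0312). The 43 nuclear-encoded respiratory chain genes, by contrast, had a median of 0.01 in WT-cKO with 22 above 0 in the authors' deposited table. In WT-cKO 37.8% of all genes and 48.9% of the better measured ones were above 0. Mitochondrially encoded transcripts are cut from shared precursors, so their values are not independent.

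**Figure D3:**
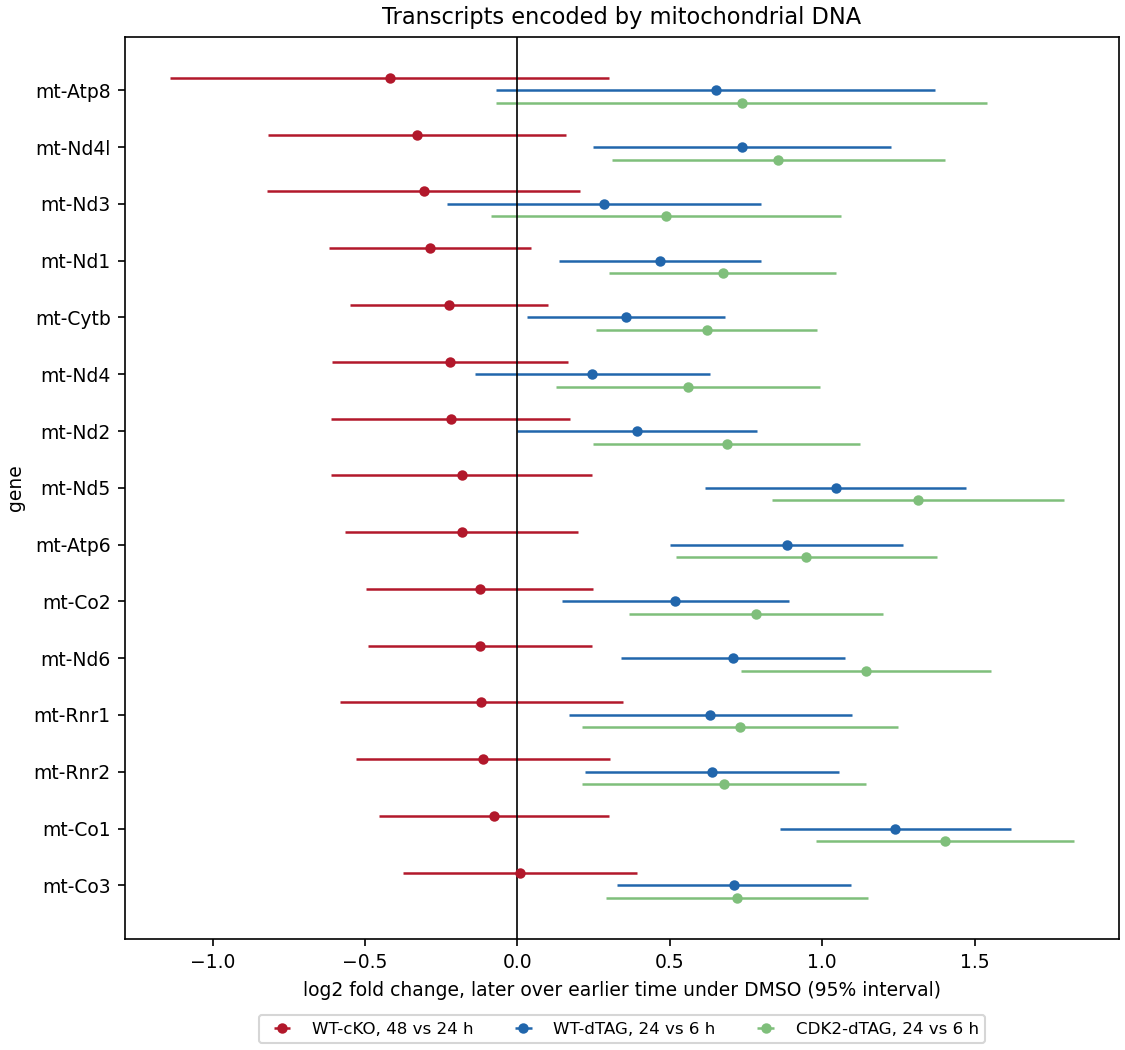
Log2 fold changes with derived 95% intervals for the 15 mitochondrially encoded transcripts, ordered by their value in WT-cKO. Every WT-cKO interval spans 0, and every WT-dTAG and CDK2-dTAG value lies above 0.

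Genes of the integrated stress response, in which phosphorylated eIF2α lets ATF4 switch on amino acid supply, chaperone and death genes, had values on both sides of 0 in WT-cKO. Of 32 with a value, 21 were above 0 and 11 below, with a median of 0.08 in the authors' deposited table, and 3 had unadjusted p under 0.05, all higher: Ddit3 (0.86), the secreted glycoprotein gene Stc2 (0.47) and Atf4 itself (0.31). Of all genes 37.8% were above 0 in WT-cKO, as were 48.9% of the better measured ones, and 1.42% of all had unadjusted p under 0.05. Genes of the response had a median of 0.36 in WT-dTAG, with 31 above 0, by the authors' deposited table. In CDK2-dTAG it was 0.32, with 28 above 0, by the same table. The shares of all genes above 0, which include uninformative genes at a constant value above 0, were 66.9% in WT-dTAG and 66.8% in CDK2-dTAG. Trib3 (chromosome 2, 152337422 to 152344032, minus strand), a pseudokinase that ATF4 and CHOP induce, had 0.08 in WT-cKO, against 1.64 in WT-dTAG and 1.02 in CDK2-dTAG, in the authors' deposited table. From the authors' values, the difference from WT-dTAG passed, at -1.56 (SE 0.317, adjusted p = 0.00789), and that from CDK2-dTAG of -0.93 did not (adjusted p = 1.00). The difference of Ddit3 from WT-dTAG, -0.77 on the authors' values, did not pass (adjusted p = 0.999). The response element bound by ATF4, searched as TGATGNAAN on both strands, occurred in 3.95% of 32851 RefSeq promoter windows of 300 bases (GRCm38.p6) and in those of 10 of 28 list members with an entry (35.7%). The first share counts windows and the second counts genes. A gene with several windows counts if any of them matches, so the shares are not directly comparable. The element was found once for Trib3 and, outside the list, once for Atf3, and in no window of the members Ddit3, Stc2 or Atf4. The windows of Trib3, whose value differed from WT-dTAG, and of Atf3 are shown, read 5′ to 3′ along the gene, with the match on the opposite strand in capitals.
Trib3 (chr2:152344011-152344310, minus strand): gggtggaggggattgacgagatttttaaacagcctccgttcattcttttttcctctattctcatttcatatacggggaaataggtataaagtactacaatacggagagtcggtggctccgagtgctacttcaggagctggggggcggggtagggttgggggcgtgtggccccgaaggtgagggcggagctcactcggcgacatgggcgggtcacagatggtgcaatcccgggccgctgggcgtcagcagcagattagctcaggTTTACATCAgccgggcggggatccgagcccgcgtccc
Atf3 (chr1:191183284-191183583, minus strand): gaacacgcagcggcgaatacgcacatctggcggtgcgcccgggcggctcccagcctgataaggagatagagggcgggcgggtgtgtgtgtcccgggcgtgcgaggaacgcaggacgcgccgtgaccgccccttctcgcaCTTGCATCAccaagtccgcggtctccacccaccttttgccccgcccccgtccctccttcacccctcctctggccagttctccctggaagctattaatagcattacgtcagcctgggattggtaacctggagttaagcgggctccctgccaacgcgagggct

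Paneth cell markers stood above 0 together in WT-cKO. Of 25 with a value, 23 were above 0 at 48 h and the median was 0.58, against 37.8% of all genes above 0, in the authors' deposited table. Of the 10 better measured ones 9 were above 0, with a median of 0.45, against 48.9% of better measured genes. Unadjusted p was under 0.05 for 6, all higher, beside 0.747% of all genes, and none passed an FDR p of 0.05, by the authors' deposited table. Mmp7, the matrilysin that activates pro-defensins in mice, had 1.23 (unadjusted p = 0.00887) in the authors' deposited table, with a derived interval of 0.31 to 2.16. Ang4, a bactericidal ribonuclease, had 0.84 (interval 0.12 to 1.57), and the lysozyme gene Lyz1 had 0.40 (interval -0.14 to 0.94) in the authors' deposited table. The lectin gene Itln1 had -0.02, and the Wnt ligand gene Wnt3 had 0.47 there, by the authors' deposited table. In bulk RNA, more Paneth cells and more RNA per Paneth cell cannot be told apart.

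Alpha-defensins are antimicrobial peptides of the Paneth granules. All 12 of their genes with a value were above 0, with a median of 0.80 and 4 at unadjusted p under 0.05, while of the 13 other markers 11 were above 0 with a median of 0.40, in the authors' deposited table. Defa26 had 1.65, Defa30 had 1.24, Defa17 had 0.75 and Defa24 had 0.68 in the authors' deposited table. Defa5 was listed at 7.41, but its derived standard error of 2.73 makes the size uninformative. Only 2 of the 12 were better measured. These genes are near-identical copies in a cluster, and reads can be split among them by the quantification. Single members are therefore uncertain, and their values are not independent. In WT-dTAG and CDK2-dTAG the Paneth medians were -0.09 and 0.29 in the authors' deposited table, and no member's difference passed (0 of 25 against either line). Alpha-defensin medians were -0.42 in WT-dTAG (3 of 12 above 0) and 0.18 in CDK2-dTAG (8 of 12). For the 13 other markers they were 0.03 in WT-dTAG (7 above 0) and 0.45 in CDK2-dTAG (11 above 0). Over all genes 66.9% were above 0 in WT-dTAG and 66.8% in CDK2-dTAG, shares that include uninformative genes at a constant value above 0. The sequence ATCAAAG, bound by the TCF factors of the Wnt pathway, occurred on either strand in 3.73% of the 32851 promoter windows and in those of 6 of 15 Paneth markers with an entry (40%), 5 of them alpha-defensin genes that share ancestry. Here too the first share counts windows and the second counts genes with any matching window, so they are not directly comparable. Mmp7 and Defa30, named above, and Defa21 are shown as examples of the 6 that hold it, with each match in capitals. A match is a description and not a bound site.
Mmp7 (chr9:7691840-7692139, plus strand): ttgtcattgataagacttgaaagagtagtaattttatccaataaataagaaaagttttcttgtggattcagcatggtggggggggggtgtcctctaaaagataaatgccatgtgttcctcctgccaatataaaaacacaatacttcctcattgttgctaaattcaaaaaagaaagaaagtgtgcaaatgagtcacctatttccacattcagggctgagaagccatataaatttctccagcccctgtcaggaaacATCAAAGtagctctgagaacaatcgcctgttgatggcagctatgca
Defa30 (chr8:21134400-21134699, plus strand): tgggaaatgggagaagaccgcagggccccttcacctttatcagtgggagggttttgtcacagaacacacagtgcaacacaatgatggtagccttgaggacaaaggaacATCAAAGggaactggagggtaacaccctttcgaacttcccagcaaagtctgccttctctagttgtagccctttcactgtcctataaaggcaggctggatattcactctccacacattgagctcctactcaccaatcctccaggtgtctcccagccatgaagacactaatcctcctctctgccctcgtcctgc
Defa21 (chr8:21025295-21025594, plus strand): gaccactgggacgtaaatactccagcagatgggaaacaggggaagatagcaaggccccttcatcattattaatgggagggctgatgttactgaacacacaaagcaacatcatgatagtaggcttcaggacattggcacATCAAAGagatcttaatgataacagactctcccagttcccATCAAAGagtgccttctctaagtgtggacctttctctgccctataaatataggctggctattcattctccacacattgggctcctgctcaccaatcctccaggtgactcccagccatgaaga

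**Figure D4:**
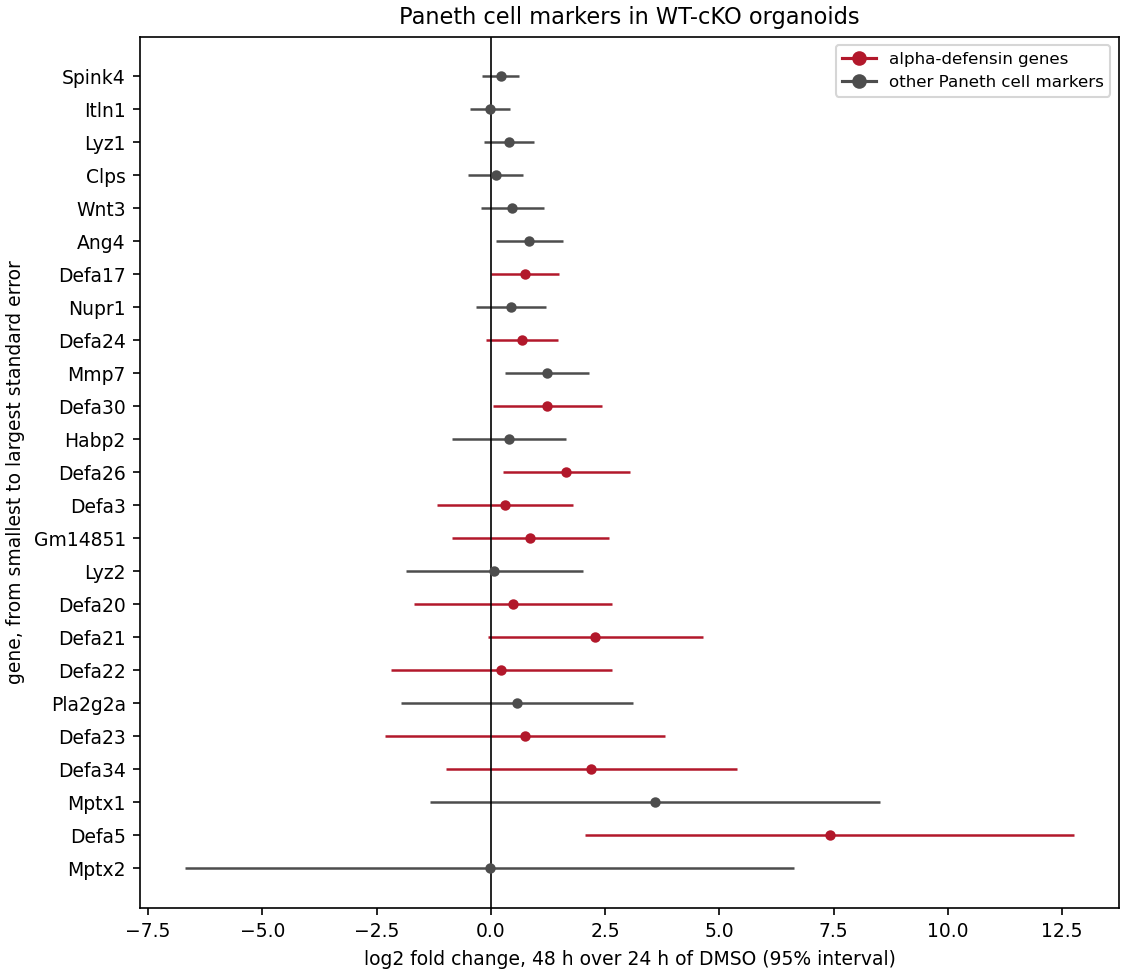
Log2 fold change of 48 h over 24 h in WT-cKO organoids with its derived 95% interval for the 25 Paneth cell markers with a value, ordered from the best to the least well measured. Nearly all points lie right of 0, Mmp7 at 1.23 and Ang4 at 0.84 among the better measured, while most intervals include 0.

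Several absorptive lists had medians above 0 in WT-cKO. Over all genes 37.8% were above 0 (48.9% of the better measured ones), and 1.42% had unadjusted p under 0.05. Of 24 brush border digestion and sugar transport genes, 20 were above 0 with a median of 0.29, and 2 had unadjusted p under 0.05: Alpi, the intestinal alkaline phosphatase, at 0.92 (derived interval 0.25 to 1.60), and Lct, lactase, at 1.36, in the authors' deposited table. The aminopeptidase gene Anpep had 0.76, the fructose transporter gene Slc2a5 had 0.78 and the sucrase-isomaltase gene Sis had 0.10 in the authors' deposited table. Of 22 lipid uptake and chylomicron genes 15 were above 0 (median 0.14), led by the triglyceride synthesis gene Dgat2 at 0.44, the only one with unadjusted p under 0.05, and the apolipoprotein genes Apoa4 at 0.74 and Apoa1 at 0.56 in the authors' deposited table. Krt20, a keratin of the villus tip and of shedding cells, had 0.89 (unadjusted p = 0.0472), and 13 of 18 villus tip genes were above 0 (median 0.13) in the authors' deposited table. Xenobiotic genes of AhR, PXR and CAR had a median of 0.20 with 21 of 28 above 0 and none at unadjusted p under 0.05, by the authors' deposited table. The fatty acid binding protein gene Fabp1 stood at 0.27 in the authors' deposited table, with a derived interval of -0.56 to 1.10. Of 18 enterocyte identity factors 7 were above 0, with a median of -0.09, and the intestinal master factor Cdx2 had -0.20 in the authors' deposited table. In the dTAG-arm lines the absorptive lists were not alike. Above 0 there were 66.9% of all genes in WT-dTAG and 66.8% in CDK2-dTAG. Both shares include uninformative genes at a constant value above 0. The median of genes with a standard error of at most 0.5 was -0.0014 in WT-dTAG and -0.020 in CDK2-dTAG. Brush border medians were -0.04 in WT-dTAG and -0.05 in CDK2-dTAG, with 10 and 8 of 24 above 0, by the authors' deposited table. Lipid uptake medians were 0.19 in WT-dTAG and 0.05 in CDK2-dTAG, with 18 and 12 of 22 above 0, and villus tip medians were 0.20 and 0.18, with 11 and 14 of 18 above 0, again by the authors' deposited table. Xenobiotic gene medians were 0.15 in WT-dTAG and 0.04 in CDK2-dTAG, by the authors' deposited table. In these lists 0 differences from either line passed.

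Secretory and stem cell lists were mixed. Beside them, 37.8% of all genes and 48.9% of the better measured ones were above 0. Unadjusted p was under 0.05 for 1.42% of all genes. Of 31 enteroendocrine lineage genes 23 were above 0 (median 0.23), with neurotensin, Nts, at 2.39 (standard error 1.02) the only one at unadjusted p under 0.05, and Chga at 0.19, by the authors' deposited table. Goblet cell markers had a median of 0.01 with 15 of 26 above 0, the mucin gene Muc2 at -0.06 and Spdef, a factor of goblet and Paneth maturation, at -0.82 (unadjusted p = 0.0360) in the authors' deposited table. Intestinal stem cell markers had a median of 0.06 with 18 of 29 above 0 and none at unadjusted p under 0.05, against medians of -0.22 in WT-dTAG and -0.17 in CDK2-dTAG, in the authors' deposited table. Lgr5, the R-spondin receptor that marks crypt base stem cells, had 0.06, Ascl2 had 0.28 and Olfm4 had 0.37 in the authors' deposited table. The tuft marker Dclk1 was listed at 1.91 with a derived interval of -3.62 to 7.44, too wide to read.

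Cell cycle genes lay mostly below 0 at 48 h. By comparison, 37.8% of all genes and 48.9% of the better measured ones were above 0. Of all genes 0.675% were lower with unadjusted p under 0.05. Of 41 DNA replication genes 9 were above 0 and 32 below, with a median of -0.15, and 3 had unadjusted p under 0.05, all lower, in the authors' deposited table: the helicase component Cdc45 (-0.70), the polymerase ε subunit Pole2 (-0.77) and the helicase subunit Mcm7 (-0.32). Of 35 E2F and G1/S genes 7 were above 0 (median -0.12); Cdc6, which loads the helicase at origins, had -0.70 (unadjusted p = 0.00908) and the chromatin assembly subunit Chaf1b had -0.69 in the authors' deposited table. Of 40 G2/M and mitosis genes 10 were above 0 (median -0.07) and none had unadjusted p under 0.05 in the authors' deposited table. Mki67 had -0.12 and the G1 cyclin gene Ccnd1 had -0.24 there, and the CDK inhibitor gene Cdkn1a had 0.11, by the authors' deposited table. In the dTAG-arm lines the G1/S medians were -0.12 in WT-dTAG and -0.11 in CDK2-dTAG in the authors' deposited table, and 0 differences passed in the 3 lists.

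Hypoxia response genes, targets of the HIF factors that signal low oxygen, were nearly all above 0. Of 24 with a value 22 were, with a median of 0.23, in the authors' deposited table; the proline hydroxylase gene P4ha1 (0.54) and the mitochondrial gene Fam162a (0.36) had unadjusted p under 0.05. The lipid droplet gene Hilpda had 0.41, Ankrd37 had 0.45, the carbonic anhydrase gene Car9 had 0.19 and Vegfa had 0.23 in the authors' deposited table. The medians in WT-dTAG and CDK2-dTAG were 0.35 and 0.28 in the authors' deposited table, with 21 of 24 above 0 in each. Over all genes, 37.8% in WT-cKO, 66.9% in WT-dTAG and 66.8% in CDK2-dTAG were above 0. These shares include the uninformative genes at a constant value. Of the better measured genes in WT-cKO 48.9% were, and 1.42% of all genes had unadjusted p under 0.05 there. Circadian clock genes had a median of -0.25 with 6 of 19 above 0, the repressor Cry1 being at -0.45 (unadjusted p = 0.0442), while the repressor Nr1d1 had 0.64, in the authors' deposited table. The 72 cytosolic ribosomal protein genes had a median of 0.03 with 48 above 0 and none at unadjusted p under 0.05 in the authors' deposited table. Apoptosis genes had a median of -0.12 with 10 of 26 above 0 in the authors' deposited table, and Bid was among those with unadjusted p under 0.05.

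**Figure D5:**
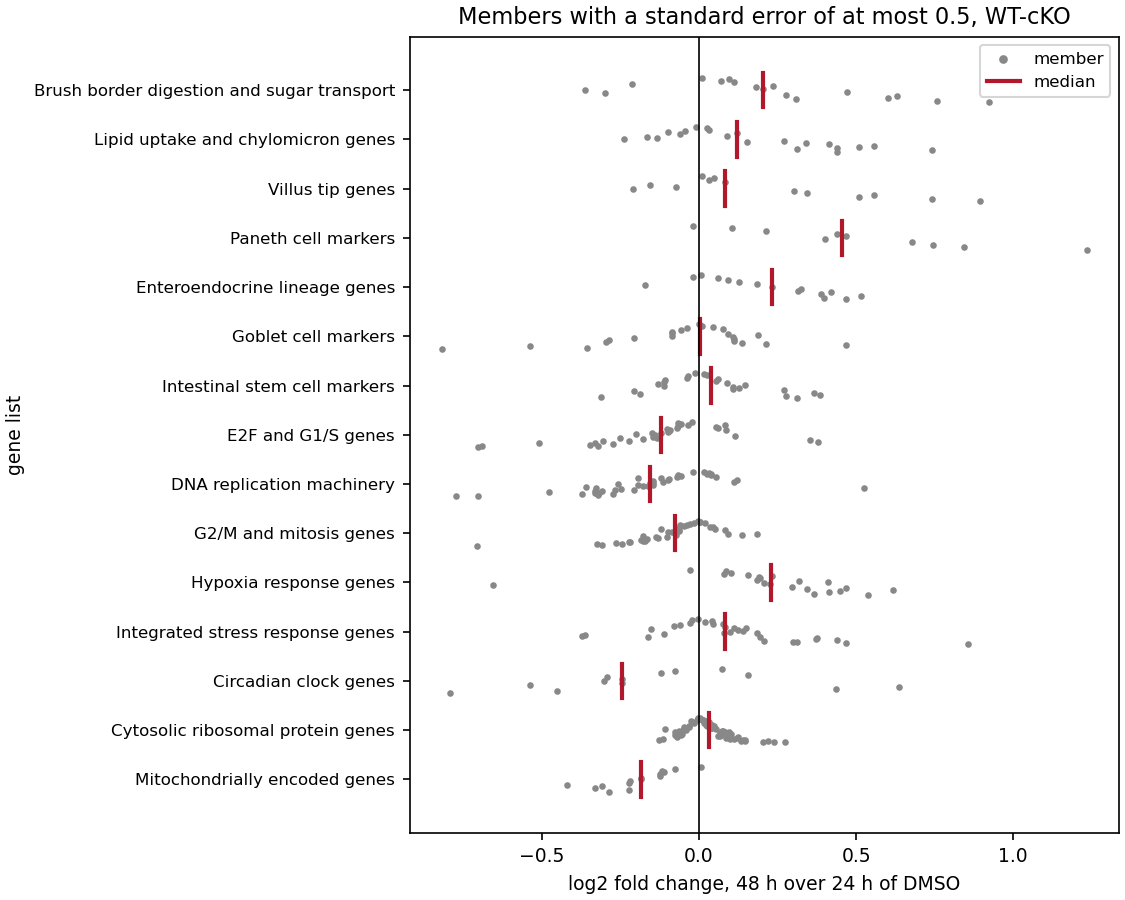
Log2 fold change of 48 h over 24 h in WT-cKO organoids for list members with a standard error of at most 0.5; each point is a gene and each red bar a list's median over those members. Paneth, hypoxia and enteroendocrine medians lie right of 0 (0.45, 0.23 and 0.23), and the clock, mitochondrial and replication medians left of it (-0.25, -0.18 and -0.15).

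The 4-OHT comparisons of WT-cKO were set beside these values. They share the DMSO libraries with it: those of 48 h enter with the opposite sign and those of 24 h with the same sign. Adding the deposited log2 fold changes around the loop (4-OHT over DMSO at 48 h, plus 48 h over 24 h in DMSO, minus 4-OHT over DMSO at 24 h) gives what 48 h over 24 h would be within 4-OHT, if all came from 1 additive fit, which is not stated; no error can be given. For Paneth cell markers this sum had a median of 0.55, with 23 of 25 above 0, against 47.5% of the better measured genes; of the 10 better measured markers 10 were above 0. It was 0.08 for hypoxia genes, -0.02 for brush border genes, -0.02 for DNA replication genes, -0.01 for E2F and G1/S genes, -0.13 for mitochondrially encoded genes and 0.23 for stem cell markers. By gene it was 0.79 for Fkbp5, 0.74 for Mettl3, 0.58 for Epas1, 0.30 for Tsc22d3, 0.88 for Mmp7, 0.14 for Alpi, 0.04 for Atf3 and -0.37 for Ddit3. The Cdk5 sum was -0.01, against -0.83 between the DMSO groups in the authors' deposited table. Between the 4-OHT and DMSO groups at 48 h, Ddit3 had -1.04 and Alpi -0.90 in the authors' deposited table, and at 24 h they had 0.18 and -0.11 there. Spermatid and germ cell transcripts, a list written after they were seen to be high with 4-OHT at 24 h, had a median of 1.17 in the DMSO comparison with 25 of 36 above 0 in the authors' deposited table, but only 2 were better measured and their median was -0.01. Of all genes 37.8% were above 0. Low values in the shared 24 h DMSO libraries raise both comparisons, so the choice of this list favours values above 0 here.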

How the data were processed

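RNA from mouse duodenum organoids was prepared with a QuantSeq 3′ kit (forward), per the labels' protocols; Salmon is named without a version in the submitters' processing notes. The genome build, like the test, normalization and filters, is not given in the sources used here. Nor is it stated whether every labelled sample entered its comparison. Per the file headers, the authors' deposited table holds for each of 13 comparisons a log2 fold change, its linear fold as a ratio, and p-values. Its FDR p was checked to be a Benjamini-Hochberg adjustment over 24905 genes. Its values were recorded under a general unit (other) because missing cells are text, and no values per sample were used. From it were computed, in Python 3.11.15 with scipy 1.17.1, a standard error (a gene's absolute log2 fold change over the standard normal quantile that matches its p), 95% intervals, and differences between comparisons, tested against a normal distribution with Benjamini-Hochberg adjustment over all genes and called under 0.05. The difference test was tested on simulated data, where it missed most of the smaller differences put in. The z scores of better measured genes had a scaled median absolute deviation of 0.761 in WT-cKO. A gene's standard error could be nearly equal in WT-cKO and WT-dTAG, which share no library. It was 0.136 in each for Lamp1 and 0.213 in each for mt-Rnr2. In CDK2-dTAG these genes had 0.152 and 0.238. How far the authors' test pooled spread over groups is not stated.

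The 53 gene lists (1274 genes, 1235 with a value, 80 in more than 1 list) and the members were chosen with earlier results of these data known; lists received no test. Named genes were those called, the 10 with the smallest p in each direction among genes with a standard error of at most 0.5, up to 4 members with the smallest p per list, and a fixed set of markers; a few further members (Slc2a5, Wnt3, Itln1, Nr3c1, Defa17, Defa21, Defa24, Defa30, mt-Atp8, mt-Co3, Nr1d1, Csf1r, Vim, Fyb) were named after their values were seen. Positions are from GENCODE M21 and promoters from RefSeq, both GRCm38, matched by symbol. Some genes that the naming rule selects are not reported here.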

Additional observations from a re-analysis of the deposited data

Results flagged for a closer look

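Each value below is the WT-cKO log2 fold change (48 h over 24 h) minus that of a dTAG-arm line, WT-dTAG or CDK2-dTAG (24 h over 6 h), for genes where this difference passed an adjusted p under 0.05. Against WT-dTAG it was 2.42 for Fkbp5, -2.32 for Rn7sk, -1.56 for Trib3, -1.32 for mt-Co1 and -6.42 for the predicted gene Gm21738. Against CDK2-dTAG it was 2.61 for Fkbp5, -1.48 for mt-Co1, 2.52 for Epas1, -1.50 for mt-Nd5 and -1.27 for mt-Nd6. Only Fkbp5 and mt-Co1 passed against both. Line and time window differ together in these differences and cannot be told apart.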

How the results depend on the processing

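The count of genes called between 48 h and 24 h stayed at 0 with Bonferroni p under 0.05, with FDR p under 0.1, and with adjustment over genes with a standard error of at most 0.5 (smallest adjusted p, from the authors' p-values, 0.351) or 1 (0.440). Differences from WT-dTAG numbered 5 with adjustment over genes at most 0.5 in both comparisons, 4 of them shared with the 5 reported, and from CDK2-dTAG 6, sharing all 5. Reading the deposited p as from a t distribution with 4 degrees of freedom gave 2 and 2 genes when the difference was read against a t distribution with 8, but 119 and 98 when it was read against a normal distribution, an added setting that mixes both distributions. Subtracting the median difference, also chosen after seeing the data, left 5 and 5. Of 160 list medians under other settings 16 changed sign, in 13 lists, among them glucocorticoid-responsive genes (-0.03 over all members, 0.16 over better measured ones), spermatid transcripts (1.17 against -0.01) and cyclins with CDKs (-0.03 against 0.00 without shared members). The Paneth median was 0.40 without alpha-defensins, a setting chosen after seeing the data. No paired analysis was possible because the table holds comparisons and no values per sample; leaving out replicates was not run for the same reason. Depth is unknown, and the median standard error over all genes was 1.12.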
